A study of Homo sapiens with 8 samples.

Results

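Control HT1080 cells and control MDA-MB-231 cells were compared at baseline. The comparison took the 2 arrays of HT1080 and the 2 arrays of MDA-MB-231 that the labels mark as control siRNA, 4 of the 8 arrays in the series. HT1080 is an established human fibrosarcoma line, a tumour of connective tissue, and MDA-MB-231 is an established human breast adenocarcinoma line. Both control groups received a scrambled siRNA with a lipid reagent after 24 h of culture in medium with 10% fetal bovine serum, and RNA was taken 42 h after the siRNA was added. The other 4 arrays held the same lines under the same schedule with an siRNA against VRK1, numbered 308 in the labels, and serve here as a second measurement of the line difference. Both control groups therefore share transfection reagent, siRNA exposure and serum, so no untreated state of either line was measured. The labels do not say whether replicate arrays came from separate cultures, so the p-values speak only of how far these arrays scattered, and that scatter could be purely technical.

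The lines come from different germ layers. Breast epithelium is built on keratin filaments, desmosomes and tight junctions, whereas connective tissue tumours keep vimentin filaments, interstitial collagens and N-cadherin. MDA-MB-231 is known as a breast cancer line with a mesenchymal phenotype and without oestrogen receptor, progesterone receptor or amplified ERBB2. HT1080 is known for secreted gelatinases and invasive growth. Cancer-testis antigens are proteins that healthy adults make almost only in germ cells and that many tumours switch on. Interferon-stimulated genes are the antiviral genes that type I and type II interferons induce through STAT factors.

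Illumina HumanRef bead arrays give 1 brightness per probe, and the deposited values are log2 intensities. A difference of 1 log2 is a doubling of measured brightness. Replicate arrays correlated across all 24526 probes with r between 0.991 and 0.995, against 0.919 to 0.923 between an HT1080 and an MDA-MB-231 control array. The replicates of control MDA-MB-231 lay further apart than those of control HT1080. The SD of the replicate difference over the named probes above the filter given next was 0.175 log2 in HT1080 and 0.264 log2 in MDA-MB-231. Of 24526 probes, those whose highest group mean reached 6.08 log2, the median over probes, were kept, and the brightest kept probe stood for each of 9451 named genes. A signal at or below 6.08 log2 is called background level. The array gives no detection flag, so where 1 line lies at background level the difference is a lower estimate of the true change. Background level does not show that a transcript is missing, whether it is seen in 1 line or in both. Even the ribosomal protein RPL10, the disulfide isomerase PDIA3, the mitochondrial channel VDAC2 and the class I chain HLA-C lay there on the control arrays of both lines. Whether the probes of such genes report their transcripts was not tested. All values are bulk averages, in which fewer expressing cells and less RNA per cell cannot be told apart.

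The lines differed at most genes above background, mostly by little. With limma and Benjamini-Hochberg adjustment over all genes, 5074 of 9451 genes (53.7%) were called at an adjusted p under 0.05, 2472 of them higher (26.2%) and 2602 lower (27.5%) in HT1080. The arrays of 1 line lay wholly above or below those of the other at 7320 genes (77.5%). The median absolute difference over all genes was 0.37 log2, the median SE 0.12 log2, and the smallest difference called was 0.25 log2. A difference larger than 1.5-fold was called at 1320 genes (14%). At 337 genes (3.57%) the called difference was 2 log2 or more, with 139 higher (1.47%) and 198 lower (2.1%) in HT1080. In 216 of those 337 genes 1 of the lines lay at background level, so these are mostly genes on in 1 line and not measurable in the other. Differences above 4 log2 were found at 53 genes, 27 higher and 26 lower in HT1080.

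**Figure D1:**
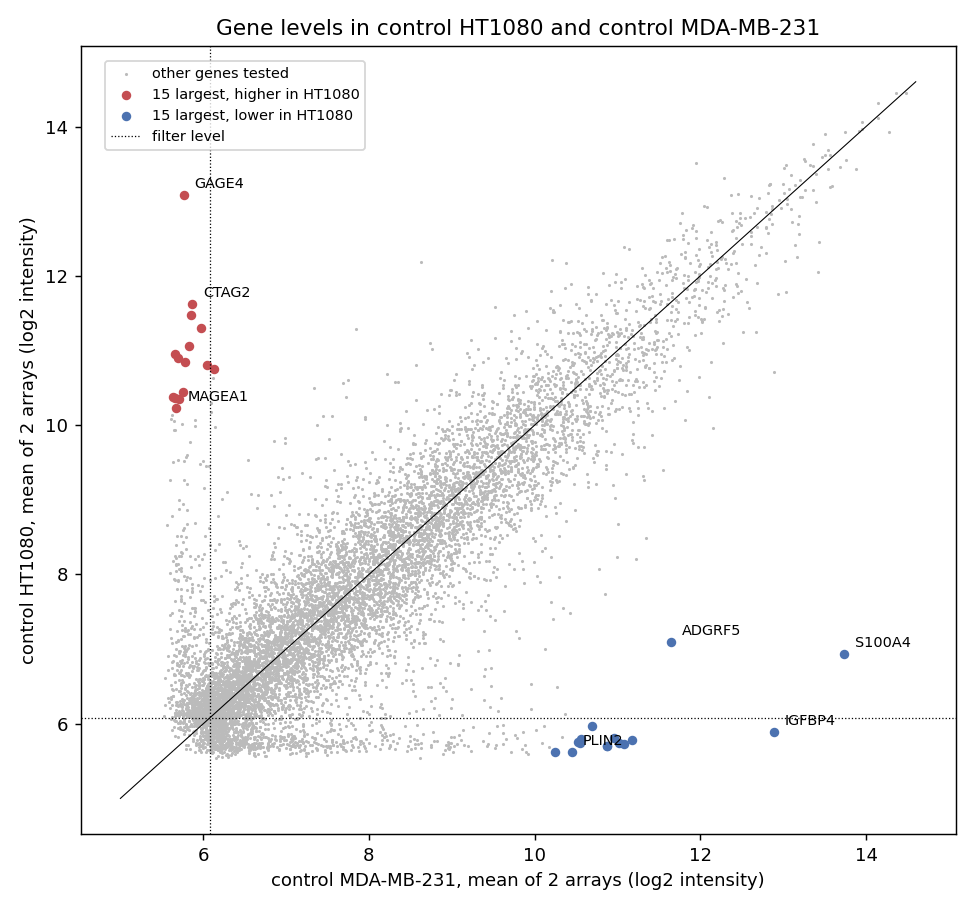
Mean log2 intensity of each gene tested in control HT1080 (vertical axis) against control MDA-MB-231 (horizontal axis), 2 arrays each, with the diagonal of equal levels and dotted lines at the filter level of 6.08 log2. Red points are the 15 largest differences higher in HT1080, whose means reach 13.08 log2 there and lie near 6 log2 in MDA-MB-231, and blue points are the 15 largest lower in HT1080.

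The cancer-testis antigens GAGE4 and CTAG2 led the genes higher in HT1080, followed by HSD11B1, JAM3 and CLEC11A. GAGE4, a cancer-testis antigen of the X chromosome, read 13.12 and 13.05 log2 on the HT1080 control arrays, against 5.76 and 5.77 log2 on the MDA-MB-231 control arrays. The MDA-MB-231 arrays lay at background level, and the difference of 7.32 log2 (limma SE 0.11, adjusted p = 1.7e-10) was the largest positive one measured. HSD11B1, which regenerates active cortisol from cortisone, read 11.46 and 11.51 log2 in HT1080, against 5.90 and 5.80 log2 in MDA-MB-231. Its other probes were also higher in HT1080, by 0.74 to 4.37 log2. JAM3, a junctional adhesion molecule, read 11.32 and 11.30 log2 in HT1080, against 5.99 and 5.95 log2 in MDA-MB-231. CLEC11A, a secreted growth factor for bone and blood progenitors, read 10.97 and 10.94 log2 in HT1080, against 5.67 and 5.64 log2 in MDA-MB-231. Both genes were thus bright in HT1080 and at background level in MDA-MB-231, with differences of 5.34 and 5.30 log2.

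The rest of the 15 largest positive differences ran down to 4.56 log2, with MDA-MB-231 at or near background level in each. Apart from further cancer-testis antigens they were TMEM200A (5.20 log2), the heparan sulfate sulfotransferase HS3ST3A1 (5.07 log2), the gelatinase MMP9 (4.75 log2), the matricellular protein SPARC (4.71 log2), the kainate receptor auxiliary subunit NETO2 (4.69 log2), the embryonic globin HBE1 (4.65 log2) and N-cadherin, CDH2 (4.62 log2). HBE1 read 10.39 and 10.31 log2 in HT1080, against 5.79 and 5.62 log2 in MDA-MB-231. This globin is normally made in yolk sac erythroblasts, and its MDA-MB-231 arrays lay at background level.

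IGFBP4 and S100A4 led the genes lower in HT1080. IGFBP4, a secreted protein that binds insulin-like growth factors, read 5.85 and 5.93 log2 on the HT1080 control arrays, against 13.06 and 12.72 log2 on the MDA-MB-231 control arrays. HT1080 lay at background level, and the difference of -7.00 log2 (limma SE 0.13, adjusted p = 3.49e-10) was the largest negative one measured. S100A4, a calcium-binding protein linked to cell motility and metastasis, read 6.98 and 6.89 log2 in HT1080, against 13.90 and 13.57 log2 in MDA-MB-231. Here HT1080 lay above background level. The difference of -6.80 log2 was -7.25 log2 after background subtraction, and a second S100A4 probe gave -6.53 log2. MARCKS, an actin-linked substrate of protein kinase C, read 5.78 and 5.77 log2 in HT1080, against 11.05 and 11.31 log2 in MDA-MB-231. VAMP8, a SNARE of late endosomes and secretory granules, read 5.68 and 5.78 log2 in HT1080, against 11.15 and 11.01 log2 in MDA-MB-231.

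The other large negative differences included CYBA, the p22phox subunit of NADPH oxidase (-5.17 log2), PLAAT4, a retinoid-induced phospholipase (-5.15 log2), PLIN2, a coat protein of lipid droplets (-4.82 log2), CAVIN3 of the caveolar coat (-4.78 log2), and the vasodilator peptide adrenomedullin, ADM (-4.77 log2). RPL39L, a paralogue of a ribosomal protein, read 5.98 and 5.95 log2 in HT1080, against 10.85 and 10.53 log2 in MDA-MB-231 (-4.73 log2). COXFA4L3 differed by -4.80 log2 at its brightest probe and by -1.74 log2 at another. ADGRF5, an adhesion G protein-coupled receptor, read 7.10 and 7.09 log2 in HT1080, against 11.58 and 11.72 log2 in MDA-MB-231, and was above background level in both lines.

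Simple-epithelium genes were lower in HT1080. Of 40 epithelial junction and identity genes on the array, 22 passed the filter, and of these 17 were called lower in HT1080 (77.3%, against 27.5% of all genes) and 1 higher (4.55%, against 26.2%). The lower count was 11 without HT1080 control replicate 2 and 12 without HT1080 control replicate 1 or MDA-MB-231 control replicate 2. Their median difference was -0.74 log2, against -0.000685 log2 over all genes. A gene that passes the filter only through the line where it is bright had to differ, so list counts describe only the genes above the filter. All genes went through the same filter, and their 26.2% higher and 27.5% lower are the shares to set beside each later list percentage. A list rich in genes bright in only 1 line can exceed these shares in part through the filter. Without the filter 17 of the 40 epithelial genes were called lower and 1 higher. SPINT2, an inhibitor of epithelial serine proteases, read 5.75 and 5.73 log2 in HT1080, against 10.21 and 9.96 log2 in MDA-MB-231. Plakoglobin, JUP, a linker of desmosomes and adherens junctions, read 5.66 and 5.69 log2 in HT1080, against 8.42 and 8.68 log2 in MDA-MB-231. The HT1080 arrays lay at background level for both, and the other JUP probes gave -0.74 to -0.03 log2. The tight junction claudin CLDN7 (-2.83 log2) and the epithelial transcription factor EHF (-2.27 log2) were lower too, and the exception was the tight junction plaque protein cingulin, CGN, at 0.74 log2.

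E-cadherin, CDH1, did not pass the test on the control arrays. It read 5.61 and 5.77 log2 in HT1080, against 5.99 and 5.91 log2 in MDA-MB-231, at background level in both lines without overlap (-0.27 log2, adjusted p = 0.0573). It was called lower in HT1080 on the control arrays after background subtraction (-0.64 log2, limma adjusted p = 0.0107) and when no filter, the mean of probes or an intensity trend was used. On the siVRK1 arrays CDH1 was called too (-0.47 log2, adjusted p = 0.00402), with MDA-MB-231 just above background level at 6.17 and 6.14 log2. The epithelial genes EPCAM, GRHL2, OCLN, RAB25 and DSP did not pass the filter in either line. Among 9 keratins above the filter 1 was called higher (11.1%) and 4 lower (44.4%) in HT1080. KRT19 read 5.78 and 5.69 log2 in HT1080, against 10.92 and 11.12 log2 in MDA-MB-231, and KRT7 read 5.92 and 6.01 log2 in HT1080, against 9.23 and 9.27 log2 in MDA-MB-231. Both simple keratins were at background level in HT1080. KRT8 was measurable in both lines, at 7.61 and 7.63 log2 in HT1080 and 9.14 and 8.95 log2 in MDA-MB-231 (-1.42 log2). Its filament partner KRT18 differed by -0.17 log2 and did not pass the test (adjusted p = 0.181).

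Breast lineage genes were called in both directions. Of 14 luminal genes above the filter 3 were called higher (21.4%) and 5 lower (35.7%) in HT1080, shares near the 26.2% and 27.5% of all genes, and of 14 basal and myoepithelial genes 7 were called higher (50%) and 5 lower (35.7%). MLPH, a melanosome and vesicle transport adaptor, was the largest luminal difference, at 5.62 and 5.80 log2 in HT1080, against 9.24 and 9.61 log2 in MDA-MB-231. The carbonic anhydrase CA12 (-2.19 log2) and the luminal transcription factor SPDEF (-1.91 log2) were also lower in HT1080. FOXA1, the pioneer factor of luminal breast cells, ran the other way, at 6.94 and 6.93 log2 in HT1080, against 5.73 and 5.82 log2 in MDA-MB-231 (1.16 log2, limma adjusted p = 1.86e-05). The trefoil peptide TFF3 was called at -1.39 log2, with 5.67 and 5.75 log2 in HT1080 and 6.48 and 7.72 log2 in MDA-MB-231. Its call was lost without MDA-MB-231 replicate 2 (-0.77 log2, adjusted p = 0.123) and without either HT1080 control array (adjusted p = 0.088 and 0.0736). The oestrogen receptor ESR1, the progesterone receptor PGR and the luminal factor GATA3 did not pass the filter in either line. Among basal genes the surface ectonucleotidase NT5E (-4.10 log2) and the hemidesmosome integrin ITGB4 (-2.38 log2) were lower in HT1080, whereas smooth muscle actin ACTA2 (2.99 log2) and the laminin chain LAMB3 (2.05 log2, with 0.36 log2 at another probe) were higher. The basal keratins KRT5 and KRT14 did not pass the filter.

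Both lines carried mesenchymal genes, in different sets. Of 15 mesenchymal factors and markers above the filter, 6 were called higher (40.0%) and 5 lower (33.3%) in HT1080, the lower count being 3 without HT1080 control replicate 1 or MDA-MB-231 control replicate 1. Vimentin, VIM, read 11.87 and 11.74 log2 in HT1080, against 11.72 and 12.12 log2 in MDA-MB-231, so the arrays overlapped and the difference of -0.12 log2 did not pass the test (adjusted p = 0.506). N-cadherin, CDH2, read 10.73 and 10.79 log2 in HT1080, against 6.15 and 6.11 log2 in MDA-MB-231. The mesenchymal cadherin CDH11 was the mirror image, at 6.03 and 5.94 log2 in HT1080, against 9.63 and 9.61 log2 in MDA-MB-231. Each line was thus bright for 1 of these cadherins and near background level for the other. SPARC and the collagen cross-linker LOX (1.77 log2) were higher in HT1080, as was TWIST1 (0.87 log2), while the transcription factor SNAI2 was lower (-1.26 log2). SNAI1 and fibronectin, FN1, did not pass the filter, which does not show that either transcript was missing.

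Markers of resident fibroblasts were mostly not measurable. Of 29 fibroblast and stromal genes on the array 10 passed the filter, of which 3 were called higher (30.0%) and 5 lower (50%) in HT1080, and PDGFRA, THY1, FAP, DCN, LUM and POSTN were at background level in both lines. The exception above 2 log2 was endoglin, ENG, a co-receptor for TGF-beta, at 8.22 and 8.79 log2 in HT1080, against 5.71 and 5.87 log2 in MDA-MB-231. Set against the labels, HT1080 carried vimentin, SPARC, N-cadherin, basement membrane collagen and endoglin, but not PDGFRA, THY1 or FAP above background level. MDA-MB-231 carried KRT7, KRT19, SPINT2 and JUP but not CDH1 or EPCAM above background level. The genes at background level in both lines may still be expressed, so their readings do not set the lines apart from their labels.

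**Figure D2:**
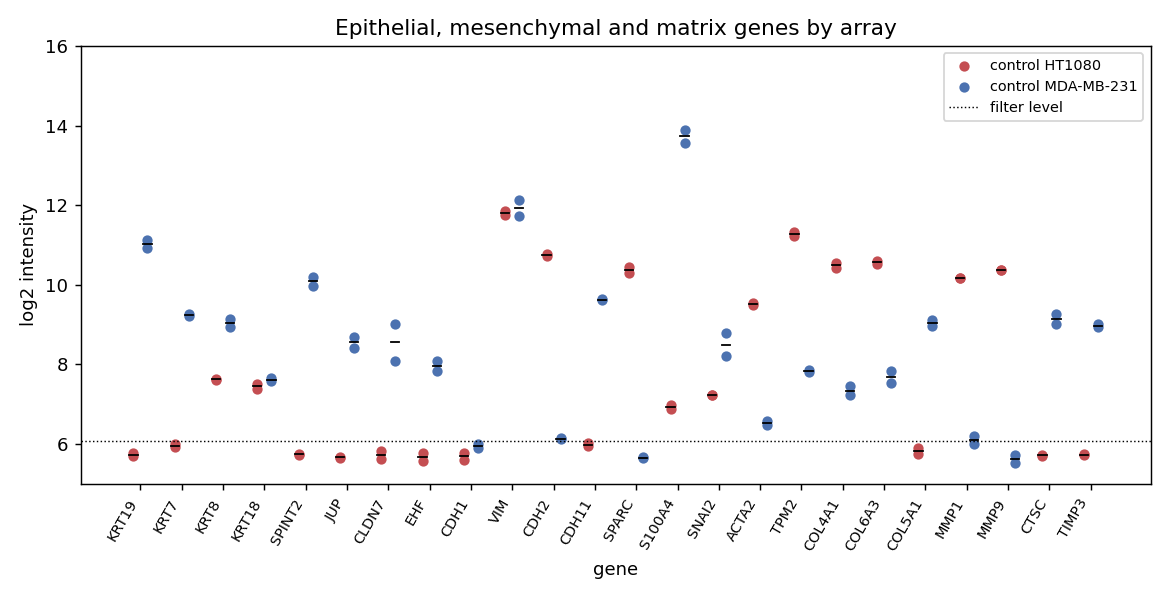
Log2 intensity of 24 epithelial, mesenchymal and matrix genes on each control array, HT1080 in red left of MDA-MB-231 in blue, with short bars at the mean of 2 arrays and a dotted line at the filter level of 6.08 log2. The keratins KRT19 and KRT7 lie at the dotted line in HT1080, CDH2 and SPARC lie near it in MDA-MB-231, and VIM overlaps between the lines.

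Collagen genes differed in both directions. Of 31 collagen and collagen-processing genes above the filter 11 were called higher and 11 lower in HT1080 (35.5% each), with 6 at 2 log2 or more. The basement membrane chain COL4A1 read 10.43 and 10.56 log2 in HT1080, against 7.45 and 7.23 log2 in MDA-MB-231. The microfibrillar chain COL6A3 read 10.60 and 10.53 log2 in HT1080, against 7.53 and 7.83 log2 in MDA-MB-231, and its second probe gave 2.85 log2, close to the 2.88 log2 of the first. The fibrillar chain COL5A1 ran the other way, at 5.75 and 5.89 log2 in HT1080, against 9.11 and 8.96 log2 in MDA-MB-231. Collagen prolyl 3-hydroxylases were exchanged between the lines, with P3H3 higher (2.57 log2) and P3H2 lower (-3.85 log2) in HT1080. The interstitial collagen COL1A1 lay at the filter level in both lines, at 5.96 and 6.12 log2 in HT1080, against 6.10 and 6.06 log2 in MDA-MB-231 (-0.04 log2, adjusted p = 0.781).

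Secreted proteases differed with opposite signs. Of 26 matrix proteases and inhibitors above the filter 9 were called higher (34.6%) and 12 lower (46.2%) in HT1080, and 8 reached 2 log2. MMP9 read 10.38 and 10.38 log2 in HT1080, against 5.73 and 5.53 log2 in MDA-MB-231. The collagenase MMP1 read 10.18 and 10.16 log2 in HT1080, against 5.99 and 6.20 log2 in MDA-MB-231. In both genes the HT1080 arrays lay far above MDA-MB-231 arrays that were near background level. MMP2, a gelatinase like MMP9, did not pass the filter, at 6.07 and 6.02 log2 in HT1080, against 5.82 and 5.88 log2 in MDA-MB-231. The plasminogen activator PLAU was measurable in both lines and 1.23 log2 higher in HT1080, and the serpin SERPINB5 was 2.40 log2 higher. Lower in HT1080 were the lysosomal cysteine protease CTSC (-3.43 log2), the metalloproteinase inhibitor TIMP3 (-3.24 log2), the cystatin CST6 (-2.82 log2), the sheddase ADAM8 (-2.57 log2) and the lysosomal protease CTSD (-2.14 log2). TIMP3 read 5.76 and 5.72 log2 in HT1080, against 9.01 and 8.93 log2 in MDA-MB-231.

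Contractile and adhesion genes also differed in both directions. Of 23 actin-binding contractile genes above the filter 8 were called higher (34.8%) and 13 lower (56.5%) in HT1080. The tropomyosin TPM2 read 11.23 and 11.34 log2 in HT1080, against 7.82 and 7.86 log2 in MDA-MB-231, and a second probe gave 3.35 log2. The myosin light chain MYL9 (-2.22 log2, with -0.81 log2 at another probe) and the nonmuscle myosin heavy chain MYH9 (-1.03 log2) were lower in HT1080. Of 30 integrins and focal adhesion genes 12 were called higher (40.0%) and 11 lower (36.7%), and 3 higher and 2 lower passed the stricter test of a difference above 1.5-fold. Without HT1080 control replicate 2 the counts were 10 higher and 6 lower. The collagen receptor ITGA2 was 1.0 log2 higher, and the parvins of focal adhesions had opposite signs, with PARVB at 2.37 log2 and PARVA at -1.08 log2. The larger PARVB value came from its brightest probe, and another probe gave 0.22 log2.

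S100 proteins, small calcium-binding proteins clustered together in the genome, were lower in HT1080. Of 20 family and partner genes 13 passed the filter, and of these 8 were called lower (61.5%, against 27.5% of all genes) and 1 higher (7.69%, against 26.2%), with a median of -0.79 log2. Next to S100A4, S100A6 read 9.87 and 10.06 log2 in HT1080, against 12.38 and 11.94 log2 in MDA-MB-231, S100A3 differed by -2.34 log2 and S100A11 by -1.49 log2. The single gene called higher, S100A2 at 0.44 log2, lost its call without MDA-MB-231 replicate 2 (0.20 log2, adjusted p = 0.236) and without either HT1080 control array (adjusted p = 0.0904 and 0.137). Among the insulin-like growth factor proteins, IGFBP7 (-3.01 log2) and IGFBP3 (-1.84 log2) were lower alongside IGFBP4, whereas the RNA-binding proteins IGF2BP2 and IGF2BP3 were 1.47 and 1.26 log2 higher in HT1080.

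Cancer-testis antigens showed the largest list-wide difference. Of 40 on the array 25 passed the filter, and of these 19 were called higher in HT1080 (76.0%, against 26.2% of all genes) and 4 lower (16%, against 27.5%). Their median difference was 1.45 log2, and 13 of 25 (52.0%, against 3.57% of all genes) differed by 2 log2 or more. Without the filter 19 of 40 were called higher, against 2479 of 16922 genes. The proximal promoters of 3 X-linked members with a single promoter in the RefSeq table are shown because these genes were bright in HT1080 and at or near background level in MDA-MB-231, and because this class is known to be controlled by methylation of CG dinucleotides. Each sequence holds 250 bases before and 50 after the gene start in RefSeq, build GRCh38.p14, and capitals mark CG.
PAGE5, chrX:55220096-55220395, plus strand: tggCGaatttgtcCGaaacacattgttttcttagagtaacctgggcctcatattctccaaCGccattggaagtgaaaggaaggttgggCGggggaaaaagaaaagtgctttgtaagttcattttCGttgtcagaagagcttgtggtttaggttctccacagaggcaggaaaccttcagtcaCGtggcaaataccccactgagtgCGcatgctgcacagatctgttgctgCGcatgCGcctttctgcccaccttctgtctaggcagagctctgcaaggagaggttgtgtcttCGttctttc
SSX1, chrX:48255142-48255441, plus strand: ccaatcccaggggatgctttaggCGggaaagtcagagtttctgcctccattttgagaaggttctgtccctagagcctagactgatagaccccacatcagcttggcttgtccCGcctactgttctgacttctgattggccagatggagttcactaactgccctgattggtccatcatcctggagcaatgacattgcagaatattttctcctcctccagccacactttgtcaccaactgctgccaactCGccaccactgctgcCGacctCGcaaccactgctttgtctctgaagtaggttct
PAGE1, chrX:49695935-49696234, minus strand: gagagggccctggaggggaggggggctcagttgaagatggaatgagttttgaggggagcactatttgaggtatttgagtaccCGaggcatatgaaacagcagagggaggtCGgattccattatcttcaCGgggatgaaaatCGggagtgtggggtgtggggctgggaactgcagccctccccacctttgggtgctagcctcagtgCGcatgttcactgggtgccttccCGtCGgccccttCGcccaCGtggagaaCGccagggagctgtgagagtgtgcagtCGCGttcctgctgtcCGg
These promoters hold 10, 5 and 13 CG dinucleotides in 300 bases. The median over the 19 tested cancer-testis antigens with a promoter was 12, against 26 over all 7869 tested genes with a promoter. Over all 27305 genes with a promoter, tested or not, the median was 14, close to that of the antigens. No methylation was measured here, so the counts only describe the sequences.

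The values behind these promoters were clear on single arrays. PAGE5 read 10.73 and 10.52 log2 in HT1080, against 6.19 and 6.03 log2 in MDA-MB-231. SSX1, a repressor known from the fusion of synovial sarcoma, read 10.21 and 10.39 log2 in HT1080, against 6.02 and 6.18 log2 in MDA-MB-231. PAGE1 read 9.40 and 9.60 log2 in HT1080, against 5.53 and 5.73 log2 in MDA-MB-231. In all 3 genes the lines were separated by more than 3 log2. CTAG2 (5.75 log2), GAGE7 (4.76 log2), MAGEA1 (4.56 log2), PRAME (3.79 log2), MAGEA12 (2.87 log2), PASD1 (2.55 log2), SSX4 (2.54 log2) and MAGEA6 (2.49 log2) were higher in HT1080 as well. GAGE, MAGE, SSX, CTAG and SPANX genes have near-identical copies, so a value belongs to the probe and may hold several copies of a family. A second CTAG2 probe gave only 0.88 log2. CT55, a cancer-testis antigen outside the list, was also among the largest differences, averaging 11.06 ± 0.08 log2 in HT1080 and 5.83 ± 0.07 log2 in MDA-MB-231 (SD, n = 2 each).

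The SPANX family, sperm proteins of the nuclear envelope, ran against the other antigens. SPANXC read 5.72 and 5.69 log2 in HT1080, against 10.35 and 11.41 log2 in MDA-MB-231 (-5.18 log2, limma adjusted p = 2.67e-07). SPANXB1 (-1.22 log2) and SPANXA1 (-0.71 log2) were lower in HT1080 as well, and MAEL was the fourth gene called lower. The SPANXA1 call was lost without MDA-MB-231 replicate 2 (-0.39 log2, adjusted p = 0.061) or HT1080 replicate 1 (adjusted p = 0.0659). MAGEA3, MAGEA4, MAGEC1, CT45A1 and XAGE2 did not pass the filter. Both lines thus expressed cancer-testis antigens, in different families.

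HOX genes, homeobox factors that set position along the body axis, were called higher in HT1080 at most members above the filter. Of 29 on the array 19 passed the filter, and of these 12 were called higher (63.2%, against 26.2% of all genes) and 2 lower (10.5%, against 27.5%), with a median of 0.78 log2. Without the filter 12 of 29 were called higher, against 2479 of 16922 genes. HOXB7 read 9.38 and 9.52 log2 in HT1080, against 5.90 and 6.17 log2 in MDA-MB-231. HOXC6 read 10.13 and 10.11 log2 in HT1080, against 7.23 and 7.66 log2 in MDA-MB-231, and its other probe gave 0.38 log2. HOXB8 (2.68 log2), HOXB2 (2.55 log2) and HOXB5 (2.19 log2) made up the rest of those above 2 log2. Other genes of these clusters, HOXB3, HOXB9, HOXB13, HOXC5, HOXC10, HOXC11 and HOXC12, did not pass the filter in either line. The 2 genes called lower belonged to the HOXD cluster, HOXD1 at -1.67 log2 and HOXD4 at -0.39 log2, whose call was lost without HT1080 replicate 1 (adjusted p = 0.07). HOXD1 read 5.57 and 5.57 log2 in HT1080, against 6.79 and 7.69 log2 in MDA-MB-231.

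Of 26 other developmental transcription factors above the filter 12 were called higher (46.2%) and 6 lower (23.1%), the lower count being 3 without HT1080 control replicate 2. FOXD1, a forkhead factor of stromal progenitors, read 10.23 and 10.04 log2 in HT1080, against 5.66 and 5.59 log2 in MDA-MB-231. MSX1, a homeobox factor of limb and craniofacial mesenchyme, read 9.93 and 9.93 log2 in HT1080, against 5.56 and 5.75 log2 in MDA-MB-231. Both were at background level in MDA-MB-231. FOXQ1, a forkhead factor of epithelia, was the reverse, at 5.75 and 5.69 log2 in HT1080, against 9.37 and 9.50 log2 in MDA-MB-231. DLX1 (1.98 log2) and RUNX3 (1.42 log2) were higher and SOX4 (-1.39 log2) lower in HT1080.

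Interferon-stimulated genes were lower in HT1080. Of 41 above the filter 27 were called lower (65.9%, against 27.5% of all genes) and 5 higher (12.2%), with a median of -0.76 log2, and 9 were lower by 2 log2 or more. The higher count was 3 without either HT1080 control array or without MDA-MB-231 control replicate 1. The promoters of the 4 members with the lowest differences are shown because interferon acts on such genes through the interferon-stimulated response element, whose core was searched as GAAANNGAAA on both strands, with overlapping matches counted. Sequences are from RefSeq, GRCh38.p14, 250 bases before to 50 after the gene start, and capitals mark the matches, which read TTTCNNTTTC where they lie on the other strand.
IFI27, chr14:94110486-94110785, plus strand: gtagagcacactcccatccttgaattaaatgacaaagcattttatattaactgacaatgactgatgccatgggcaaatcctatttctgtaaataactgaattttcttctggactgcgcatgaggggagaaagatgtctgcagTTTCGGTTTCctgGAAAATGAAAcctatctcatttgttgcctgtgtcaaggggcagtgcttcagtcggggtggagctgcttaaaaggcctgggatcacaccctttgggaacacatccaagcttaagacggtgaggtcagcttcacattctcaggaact
HERC5, chr4:88456869-88457168, plus strand: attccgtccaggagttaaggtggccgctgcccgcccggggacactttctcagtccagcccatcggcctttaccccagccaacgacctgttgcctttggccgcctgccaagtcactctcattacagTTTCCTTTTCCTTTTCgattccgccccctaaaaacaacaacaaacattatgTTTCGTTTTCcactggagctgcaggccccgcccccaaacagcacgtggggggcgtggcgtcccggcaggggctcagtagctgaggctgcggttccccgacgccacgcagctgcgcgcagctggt
MX1, chr21:41420308-41420607, plus strand: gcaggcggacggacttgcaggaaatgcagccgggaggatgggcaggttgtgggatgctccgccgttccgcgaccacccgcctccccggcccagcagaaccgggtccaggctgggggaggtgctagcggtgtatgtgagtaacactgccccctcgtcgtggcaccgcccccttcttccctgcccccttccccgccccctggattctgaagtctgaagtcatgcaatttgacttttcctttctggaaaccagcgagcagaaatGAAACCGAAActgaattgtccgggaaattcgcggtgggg
BST2, chr19:17405581-17405880, minus strand: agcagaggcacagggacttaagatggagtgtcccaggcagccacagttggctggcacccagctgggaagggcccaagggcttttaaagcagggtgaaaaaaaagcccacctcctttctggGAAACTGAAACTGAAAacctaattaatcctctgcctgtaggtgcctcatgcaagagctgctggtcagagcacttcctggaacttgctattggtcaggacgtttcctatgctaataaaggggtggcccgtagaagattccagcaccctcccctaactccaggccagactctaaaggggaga
There were 2 matches in IFI27, 3 in HERC5, 1 in MX1 and 2 in BST2. IFI27 has 2 promoters and MX1 3 in the RefSeq table, and 1 of each is shown. The core was found in 24 of 33 tested list members with a promoter (72.7%) and in 16 of 21 of those called lower (76.2%), against 312 of 7869 tested genes (3.96%) and 1255 of 35116 promoters in the table (3.57%). The list was built from genes known to respond to interferon, so these shares describe the list, and a match is not shown to be a binding site.

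The most different interferon-stimulated genes were at or near background level in HT1080. IFI27, a mitochondrial and nuclear membrane protein, read 5.63 and 5.62 log2 in HT1080, against 10.26 and 10.23 log2 in MDA-MB-231. HERC5, the ligase that attaches ISG15, read 6.26 and 6.44 log2 in HT1080, against 9.75 and 9.43 log2 in MDA-MB-231. MX1, an antiviral GTPase, read 5.89 and 5.95 log2 in HT1080, against 9.28 and 8.99 log2 in MDA-MB-231. The lines did not overlap in any of these genes, as in 77.5% of all genes. The tetherin BST2 (-3.03 log2), the RNA-binding IFIT2 (-2.72 log2), IFIT3 (-2.27 log2) and IFIT1 (-2.02 log2), the guanylate-binding protein GBP2 (-2.31 log2) and IFI44 (-2.28 log2) were lower too. The ubiquitin-like modifier ISG15 itself read 7.19 and 7.17 log2 in HT1080, against 8.73 and 7.97 log2 in MDA-MB-231, a smaller difference with a wider spread. The members called higher included the ubiquitin ligase TRIM22 (1.0 log2) and the nuclear body protein SP110 (0.74 log2).

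Antigen presentation genes were lower in HT1080 too. Of 23 above the filter 15 were called lower (65.2%, against 27.5% of all genes) and 3 higher (13%, against 26.2%), with a median of -1.02 log2. With the 4 control arrays fitted alone, 15 of 24 were called lower and 1 higher. CD74, the class II invariant chain, read 5.95 and 5.82 log2 in HT1080, against 9.62 and 9.28 log2 in MDA-MB-231, and its other probes gave -2.34 to -0.85 log2. HLA-DRA, the class II alpha chain, read 5.66 and 5.78 log2 in HT1080, against 8.53 and 7.79 log2 in MDA-MB-231. Both class II genes were thus at background level in HT1080 and measurable in MDA-MB-231, whereas the class II beta chains HLA-DPB1 and HLA-DRB1 were at background level in both lines. The NK-cell ligand MICB (-3.33 log2), the class II chaperone subunit HLA-DMB (-2.53 log2), the class I molecule HLA-F (-2.28 log2) and the immunoproteasome subunit PSMB9 (-2.04 log2) followed. ERAP2, a peptide-trimming aminopeptidase, was 0.94 log2 higher in HT1080. HLA genes have close paralogues that a probe may not separate, and the class II activator CIITA did not pass the filter.

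**Figure D3:**
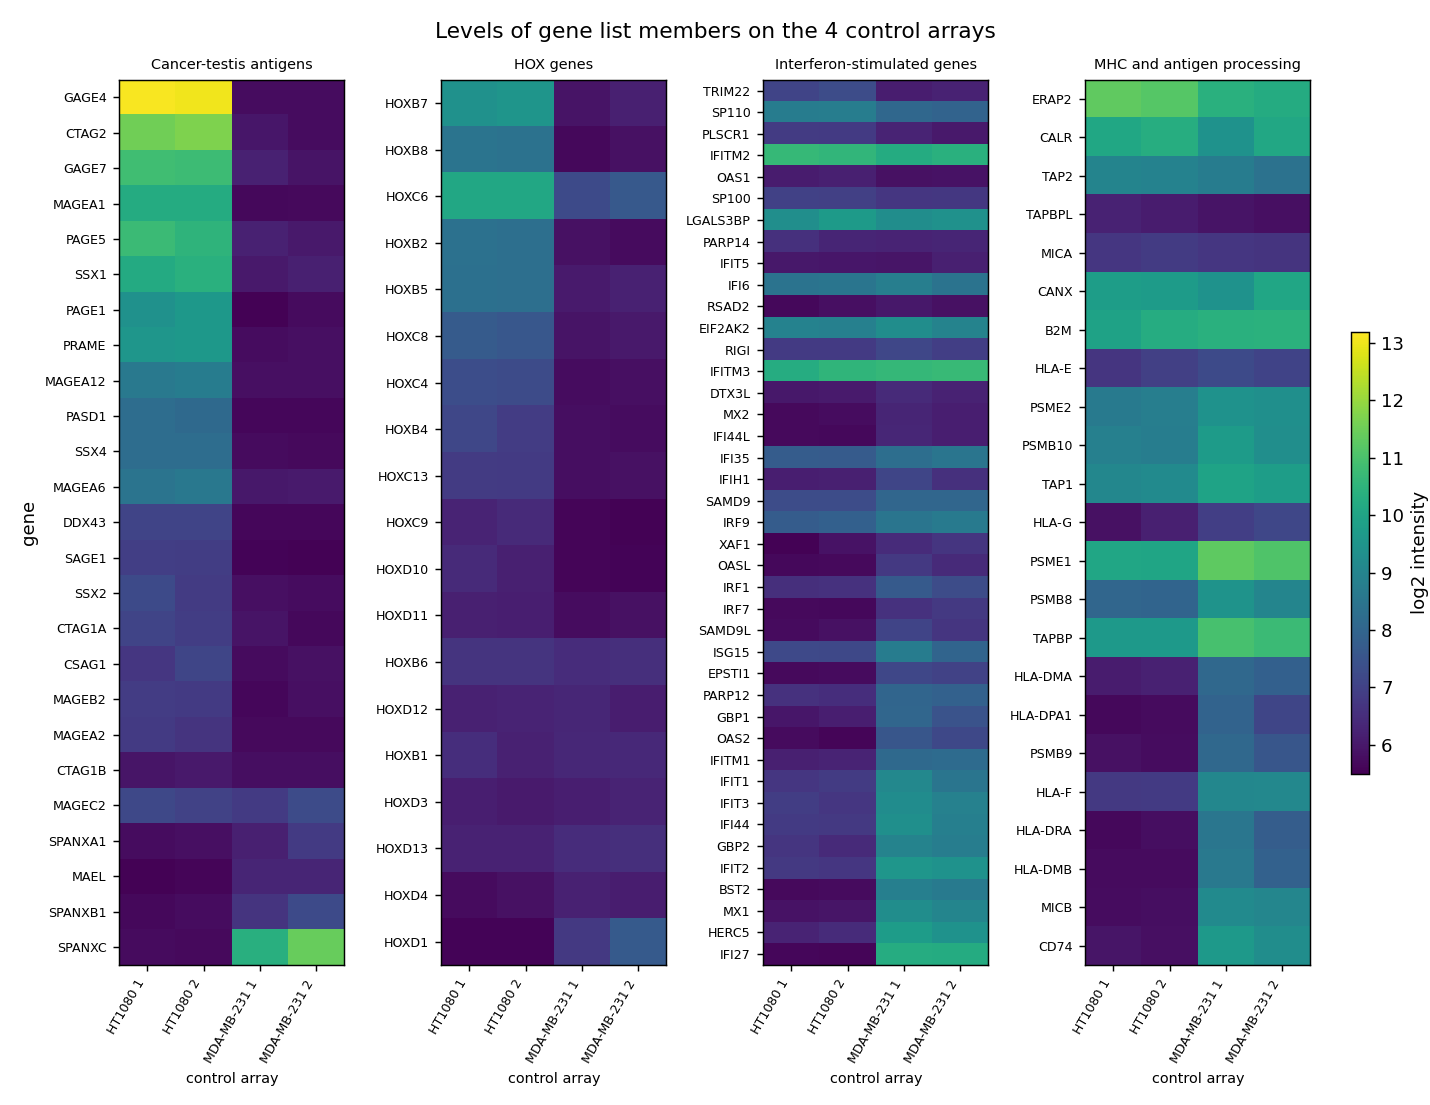
Log2 intensity of the members above the filter of 4 gene lists on each of the 4 control arrays, with genes ordered by the difference HT1080 minus MDA-MB-231 and yellow for the highest level. Most cancer-testis antigens and HOX genes are brighter on the HT1080 arrays at the left of each panel, and most interferon and MHC genes on the MDA-MB-231 arrays at the right.

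Inflammatory genes moved both ways. Of 35 NF-kB factors, chemokines and inflammatory genes above the filter 8 were called higher (22.9%) and 12 lower (34.3%), shares near those of all genes, and 5 were called higher without HT1080 control replicate 1. The cytokine IL24 read 9.50 and 9.46 log2 in HT1080, against 5.90 and 6.03 log2 in MDA-MB-231, and the interleukin receptor IL7R (2.61 log2) and IL1B (1.95 log2) were higher in HT1080. TNFSF10, the death ligand TRAIL, read 5.66 and 5.58 log2 in HT1080, against 8.99 and 9.04 log2 in MDA-MB-231, and IL6 was lower (-2.0 log2). The prostaglandin synthase PTGS2 did not pass the test (-1.56 log2, adjusted p = 0.0742), with MDA-MB-231 arrays at 7.05 and 9.44 log2.

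Cell cycle genes differed little. Of 32 G1/S and DNA replication genes above the filter 11 were called higher (34.4%) and 6 lower (18.8%), with a median of 0.13 log2. These counts rested on single arrays: leaving out 1 array at a time gave 7 to 13 higher and 1 to 7 lower. The fewest higher, 7, came without HT1080 control replicate 2 or MDA-MB-231 control replicate 2, and the lower count was 1 without HT1080 control replicate 1, 3 without HT1080 control replicate 2 and 2 without MDA-MB-231 control replicate 1. RFC3 of the clamp loader (1.16 log2) and MCM2 of the replicative helicase (1.0 log2) were higher, and the polymerase subunit POLE2 was lower (-1.19 log2) in HT1080. Of 38 G2/M genes 1 was called higher and 15 lower (39.5%), a lower count that also depended on single arrays, with a median of -0.25 log2. The exception was the hyaluronan and spindle protein HMMR, at 9.70 and 9.43 log2 in HT1080, against 7.53 and 7.24 log2 in MDA-MB-231, with 2.03 log2 at its second probe. Among mitotic kinases NEK2 differed by -1.16 log2, and PLK1 did not pass the test (0.17 log2, limma adjusted p = 0.274).

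Of 13 D cyclins, partner kinases and inhibitors above the filter, 3 were called higher (23.1%) and 8 lower (61.5%) in HT1080, the lower count being 5 without HT1080 control replicate 1. CCND3 read 9.68 and 9.72 log2 in HT1080, against 11.57 and 11.07 log2 in MDA-MB-231. CCND2 read 5.73 and 5.68 log2 in HT1080, against 7.45 and 8.44 log2 in MDA-MB-231. CCND1, bright in both lines, differed by -0.58 log2, a call lost without MDA-MB-231 replicate 1, HT1080 replicate 1 or HT1080 replicate 2 (adjusted p = 0.0746, 0.113 and 0.0543). The germline cyclin CCNA1 differed by -2.67 log2, at background level in HT1080, and CDK6 was 0.87 log2 higher. CDKN2A and CDKN2B did not pass the filter in either line.

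The target of the siRNA elsewhere in the series showed no detectable difference. VRK1, a chromatin kinase, read 7.84 and 7.88 log2 in control HT1080, against 7.93 and 7.61 log2 in control MDA-MB-231. The arrays overlapped, and the difference of 0.09 log2 (limma SE 0.17) did not pass the test (adjusted p = 0.676). Its relatives VRK2 (-0.48 log2) and VRK3 (-1.20 log2) were called lower in HT1080, and the other VRK3 probes gave -0.36 to -0.07 log2.

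Output genes of the ERK pathway were called lower in HT1080 more than higher. Of 24 above the filter 2 were called higher (8.33%, against 26.2% of all genes) and 12 lower (50%, against 27.5%), with a median of -0.39 log2. Without HT1080 control replicate 2 the lower count was 8, and without MDA-MB-231 control replicate 2 the counts were 4 higher and 9 lower. The feedback inhibitor SPRY1 read 5.53 and 5.66 log2 in HT1080, against 9.81 and 10.02 log2 in MDA-MB-231. DUSP6, the phosphatase that dampens ERK, read 5.80 and 5.74 log2 in HT1080, against 8.21 and 8.37 log2 in MDA-MB-231, with -2.15 log2 at a second probe. Both feedback genes were at background level in HT1080. EGR1 (-2.02 log2), MYC (-1.97 log2) and DUSP4 (-1.32 log2) were lower as well. HBEGF, a ligand of the EGF receptor, went against the list at 1.70 log2, as did the urokinase receptor PLAUR at 1.06 log2, and DUSP5 (0.47 log2, adjusted p = 0.161) and SPRY2 (0.22 log2, adjusted p = 0.435) did not pass the test.

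Growth factor receptors showed smaller values. EGFR differed by -0.02 log2 (adjusted p = 0.918) and ERBB2 by 0.27 log2 (adjusted p = 0.0759). Of 20 other growth factor receptors and ligands above the filter 6 were called higher (30.0%) and 9 lower (45.0%), none by 2 log2. The collagen receptor kinase DDR2 was higher (1.58 log2) and PDGFRB lower (-0.87 log2) in HT1080. Of 27 ephrins, semaphorins and guidance receptors 13 were called higher (48.1%) and 5 lower (18.5%), with a median of 0.36 log2. The lower count was 2 without HT1080 control replicate 1 and 3 without HT1080 control replicate 2 or MDA-MB-231 control replicate 2. EPHB1, an ephrin receptor, read 9.60 and 9.47 log2 in HT1080, against 5.69 and 5.70 log2 in MDA-MB-231. The secreted SEMA3C (-1.57 log2) and SLIT2 (-0.98 log2) were lower.

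Ligands of the TGF-beta family included some of the most different signalling genes. Of 25 list members above the filter 6 were called higher (24.0%) and 7 lower (28.0%), shares near those of all genes, and 4 were called lower without HT1080 control replicate 1 or MDA-MB-231 control replicate 2. BMP4 read 5.72 and 5.65 log2 in HT1080, against 10.41 and 9.94 log2 in MDA-MB-231, and its second probe gave -1.91 log2. ID3, a target of BMP signalling, was higher (2.78 log2) and PMEPA1, a feedback target of TGF-beta, lower (-2.18 log2) in HT1080. The stress cytokine GDF15 read 12.18 and 12.20 log2 in HT1080, against 7.31 and 9.96 log2 in MDA-MB-231. Its difference was 3.56 log2, and 2.23 log2 without MDA-MB-231 replicate 1, where it kept its call (adjusted p = 0.00901). Of 19 WNT genes 7 were called each way (36.8%), with 4 called lower without either HT1080 control array. Among them were the secreted modulators DKK3 (2.82 log2) and SFRP1 (2.30 log2), higher in HT1080, and DKK1 (-1.52 log2), lower. Of 22 targets of the YAP and TAZ coactivators 5 were called higher (22.7%) and 10 lower (45.5%), among them tissue factor, F3 (-2.94 log2), and the DNA-binding partner TEAD2 (-2.12 log2), whereas CCN1 did not pass the test (0.22 log2, adjusted p = 0.133).

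Stress and detoxification genes were called lower in HT1080 more than higher. Of 41 NRF2, glutathione and aldo-keto reductase genes above the filter 4 were called higher (9.76%) and 22 lower (53.7%), with a median of -0.56 log2. The cytochrome CYP1B1 read 5.86 and 5.80 log2 in HT1080, against 10.74 and 9.93 log2 in MDA-MB-231. The secreted glutathione peroxidase GPX3 (-3.60 log2) and the microsomal transferase MGST2 (-3.39 log2) were lower, as was the quinone reductase NQO1 (-1.95 log2), which was bright in both lines. GCLM, of glutathione synthesis, did not pass the test (-0.07 log2, adjusted p = 0.738). Of 36 hypoxia and glycolysis genes 1 was called higher (2.78%) and 20 lower (55.6%), with a median of -0.42 log2. Besides ADM, the mTORC1 inhibitor DDIT4 read 8.39 and 8.08 log2 in HT1080, against 10.69 and 11.30 log2 in MDA-MB-231, and the hypoxia factor EPAS1 was lower (-1.46 log2). Hexokinases HK1 (-0.13 log2, adjusted p = 0.318) and HK2 (-0.19 log2, adjusted p = 0.368) did not pass the test.

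Of 22 iron handling and ferroptosis genes above the filter 3 were called higher (13.6%) and 9 lower (40.9%) in HT1080, the lower count being 5 without HT1080 control replicate 2 or MDA-MB-231 control replicate 2. The small heat shock protein HSPB1 read 5.97 and 5.97 log2 in HT1080, against 9.79 and 10.44 log2 in MDA-MB-231. The iron exporter SLC40A1 was lower (-1.75 log2), and the transferrin receptor TFRC and the ferrireductase STEAP3 were 1.07 and 1.45 log2 higher in HT1080. The transporter SLC11A2, also of iron uptake, was 0.70 log2 higher. Of 24 cholesterol and fatty acid synthesis genes 1 was called higher (4.17%), the epoxidase SQLE at 1.53 log2, and 7 lower (29.2%). Without MDA-MB-231 control replicate 1 there were 12 lower, and without MDA-MB-231 control replicate 2 there were 4 higher. The MDA-MB-231 arrays lay over 1 log2 apart on sterol genes such as HMGCS1 at 9.11 and 10.22 log2 and DHCR7 at 9.14 and 10.19 log2, and neither was called.

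Housekeeping complexes showed small shifts. Of 62 cytosolic ribosomal protein genes 28 were called higher (45.2%) and 2 lower (3.23%), with a median of 0.28 log2, and 5 higher and 1 lower passed the test of a difference above 1.5-fold. RPL14 differed by 1.74 log2 at its brightest probe and by 0.09 log2 at another, and RPS23 by -1.0 log2. These genes have many processed copies that a probe may also bind. Of 50 subunits of oxidative phosphorylation 14 were called higher (28.0%) and 5 lower (10.0%), with a median of 0.14 log2. The higher share was near the 26.2% of all genes, and the lower share was below their 27.5%. NDUFV2 of complex I led with 1.47 log2. Without HT1080 control replicate 1 the higher count was 9.

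**Figure D4:**
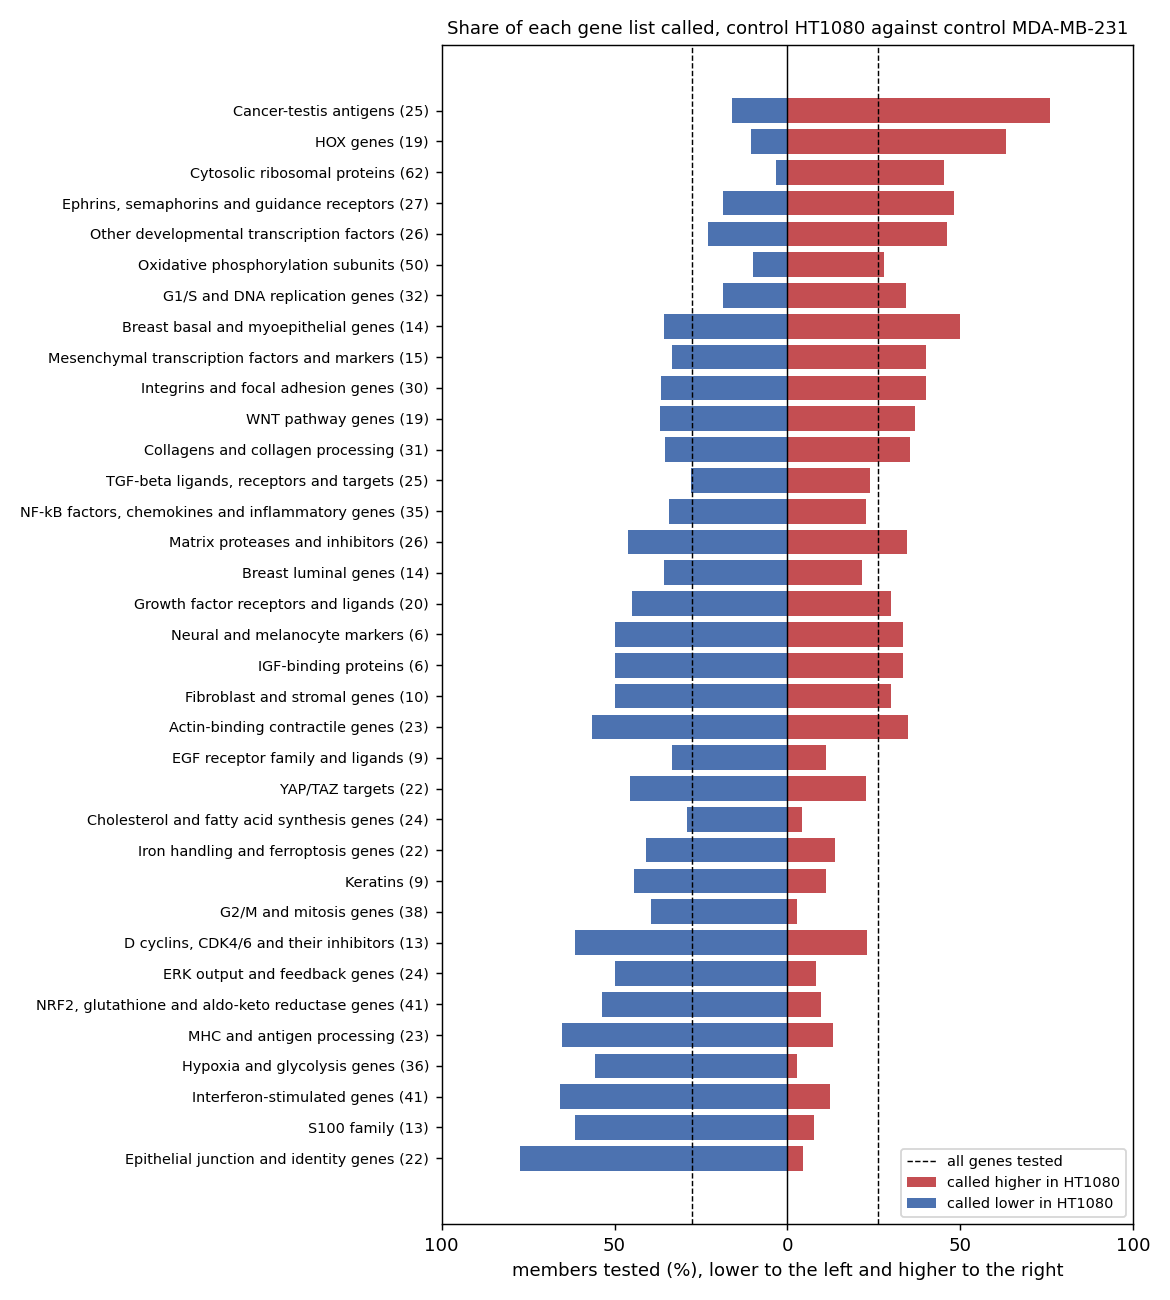
Percentage of the members above the filter that limma called higher (red, right) or lower (blue, left) in control HT1080 against control MDA-MB-231, for lists with 6 or more such members, whose number is in brackets. Dashed lines mark the shares of all genes tested, 26.2% higher and 27.5% lower, and the cancer-testis list extends furthest to the right.

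Markers of other cell types were mostly at background level in both lines. Of 14 leukocyte markers 4 passed the filter, and PTPRC, CD3D, CD3E, CD79A and SPI1 did not. CD14, a lipopolysaccharide co-receptor, read 5.74 and 6.09 log2 in HT1080, against 8.18 and 7.88 log2 in MDA-MB-231. The lysosomal glycoprotein CD68 was 1.02 log2 higher in HT1080. Of 11 endothelial markers 4 passed, with the junction protein ESAM lower (-3.01 log2) and the receptor TIE1 higher (1.81 log2) in HT1080, and VWF, CDH5 and KDR did not pass. Of 13 muscle markers 2 passed and neither was called, and MYOD1, MYOG and DES were at background level. Of 16 neural and melanocyte markers 6 passed, with neurofilament NEFL higher (1.20 log2) and nestin, NES, lower (-1.60 log2) in HT1080. Linear intensities were also summed over all markers on the array. The leukocyte sums overlapped, at 1662 and 1803 in HT1080 and 1714 and 1675 in MDA-MB-231. All 4 tested leukocyte markers were called, and opposite differences such as those of CD14 and CD68 can cancel in a sum. The endothelial sum was 865.1 and 820.4 in HT1080 and 1106 and 1197 in MDA-MB-231, and the neural and melanocyte sum 1682 and 1625 in HT1080 and 1805 and 1876 in MDA-MB-231. The part of such genes in the other results was not tested.

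The line difference was nearly the same on the 4 arrays with siRNA against VRK1, which share no array with the control comparison but share the limma estimate of the spread. Within MDA-MB-231, same-numbered control and siVRK1 arrays deviated together, so the sets may not be fully separate. The correlation of their deviations over the kept named probes was 0.477, against -0.0298 within HT1080. On those arrays 5251 genes were called (55.6%), and 4309 were called in both, which is 84.9% of the control calls and 82.1% of the siVRK1 calls. The direction was the same in 4306 of the 4309, and all 337 genes with a called control difference of 2 log2 or more kept their direction. Across the 9451 genes the line differences on both sets correlated with r of 0.967, as a description, since the sets share probes and cell lines. IFI27 differed by -5.25 log2 on the siVRK1 arrays, KRT19 by -5.24 log2 and CDH2 by 4.67 log2. The change of the line difference with siVRK1 was called at 0 genes by limma, with a smallest adjusted p of 0.0751. Of the 9451 genes 582 had an unadjusted limma p under 0.05, a level that a share of genes passes even where nothing changes. The germline cyclin CCNA1 differed by -1.27 log2 on siVRK1 arrays and by -2.67 log2 on control arrays, and ID3 by 1.18 log2 on siVRK1 arrays and 2.78 log2 on control arrays.

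**Figure D5:**
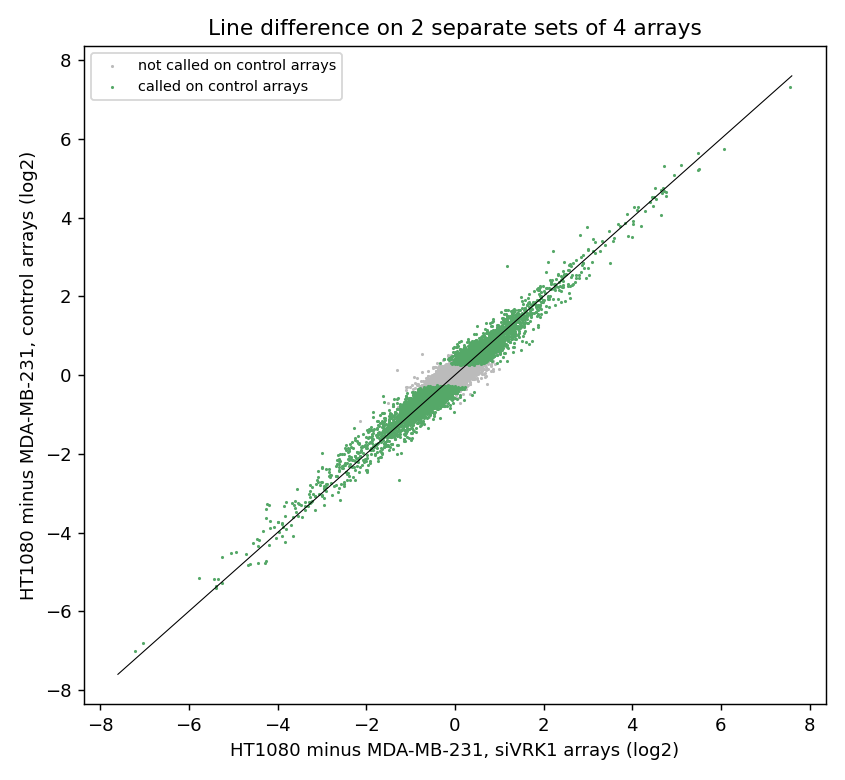
Difference between HT1080 and MDA-MB-231 in log2 for each gene tested, on the control arrays (vertical axis) against the siVRK1 arrays (horizontal axis), with green points for genes called on the control arrays and the line of equality. The points follow the line of equality, from -7.00 log2 for IGFBP4 to 7.32 log2 for GAGE4 on the vertical axis.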

How the data were processed

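The series holds 8 single-colour bead arrays (Illumina HumanRef), with 2 arrays in a group and 4 groups. The values deposited by the authors are log2 intensities, and GenomeStudio is named in the submitters' processing notes. The normalization and background steps are not given in the sources used here. The columns shared nearly 1 distribution (largest percentile gap 0.00305 log2, median 5.93 log2), so no further normalization was applied, and a difference that touches all genes alike cannot be seen. The number of arrays limits the precision.

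Probe names came from the platform annotation. Of 24526 probes 21834 had 1 gene symbol, 0 several and 2692 none, and 21813 symbols were found in the RefSeq gene table of GRCh38.p14. Of the 12263 probes kept 1103 had no name. limma 3.58.1 in R 4.3.3 (lmFit, eBayes) estimated each group's mean from the 8 arrays together, with 4 residual and 5.86 prior degrees of freedom. Tests were two-sided with Benjamini-Hochberg adjustment over all genes, and calls were made at an adjusted p under 0.05. A difference above 1.5-fold was tested with treat. The procedure was tested on simulated data.

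Named genes are VRK1, the 15 largest called non-overlapping differences in each direction, and in each of 40 lists (1287 symbols, 1161 on the array) the first 3 members, the 4 highest, the 4 lowest and any at 2 log2 or more. Y-linked genes were not eligible. Members named as below the filter, and CT55 as a cancer-testis antigen, were picked after their values were seen. The comparison, members and lists were chosen with earlier results of these data known.

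The replicate numbers are those of the labels. Deviations of same-numbered control arrays of the 2 lines from their group means correlated at -0.0161, so the numbers were not used as pairs. Those of same-numbered control and siVRK1 arrays correlated at 0.477 in MDA-MB-231 and -0.0298 in HT1080. 1 gene list is not reported here.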

Additional observations from a re-analysis of the deposited data

How the results depend on the processing

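On the control arrays 5074 genes were called, and leaving out 1 array at a time gave 3879 to 5132. A control group reduced to 1 array is assumed there to vary like the other groups. A stricter filter gave 3136 calls because it tested fewer genes (5089), and requiring more than a 1.5-fold difference gave 1320. The 4 control arrays fitted alone gave 4837. The remaining settings, which changed the filter, probe summary, scaling, background or variance model, gave between 4990 and 5138 calls. With the replicate block 5200 genes were called, and with the crossed replicate block, added after seeing the data, 5227; same-numbered control arrays of the 2 lines did not deviate together (-0.0161), so the numbers are not taken as pairs. Within MDA-MB-231 same-numbered control and siVRK1 arrays did (0.477), so the siVRK1 arrays may not be a wholly separate measurement of the line difference; within HT1080 they did not (-0.0298). On the siVRK1 arrays 5251 genes were called, 4051 to 4591 leaving out 1 array, and 5353 with the replicate block. The change of the line difference with siVRK1 was called at 0 genes, at 1 with array weights and at 1 without MDA-MB-231 siVRK1 replicate 2, both CCNA1 (adjusted p = 0.0498 and 0.0375), in alternatives added after seeing the data.

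Of 294 named genes called, 261 kept direction and call under all settings that tested them, except the fold requirement, and 33 lost the call without some array. These 33 differed by at most 1.39 log2. The stricter filter left some named genes untested, and such a gene was counted as kept there. ERRFI1, not called in the report's model at -0.01 log2, was 0.59 log2 without MDA-MB-231 control replicate 2 (adjusted p = 0.0138) and -0.62 log2 without MDA-MB-231 control replicate 1, with MDA-MB-231 arrays at 11.65 and 12.86 log2. Leaving out 1 array, interferon-stimulated genes called lower numbered 25 to 27, cancer-testis antigens called higher 19 each time, hypoxia genes called lower 14 to 23 and epithelial genes called lower 11 to 17. The values near background level limit what can be measured: brightness there has no order.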

Other observations

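The 9434 tested genes that the RefSeq table of GRCh38.p14 places were read in windows of 15 adjacent genes, 9112 in all, and 95% of the window medians of HT1080 minus MDA-MB-231 on control arrays lay between -0.50 and 0.53 log2. Some of the windows at the extremes are described without a test and were chosen after their values were seen. Others about as extreme were PCOLCE2 to PFN2 (0.93 log2) and ZBTB14 to MPPE1 (0.81 log2). On the negative side they were FAM114A1 to SLC30A9 (-0.79 log2), RBBP9 to CST7 (-0.78 log2) and USP14 to LAMA1 (-0.76 log2). From ACAD11 to SLC35G2, a stretch that holds EPHB1 and RYK, the median was 0.99 log2, with 11 genes called higher and 0 lower, and 0.91 log2 on the siVRK1 arrays. From B4GALT4 to MIX23, which holds GSK3B and POLQ, it was 0.87 log2, with 13 called higher and 0 lower, and 1.36 log2 on the siVRK1 arrays. From SOBP to SLC16A10, which holds FOXO3 and SESN1, it was 0.83 log2, with 11 higher and 1 lower, and 0.72 log2 on the siVRK1 arrays. From USP49 to KLHDC3, which holds CCND3, it was -0.99 log2, with 2 higher and 12 lower, and -0.97 log2 on the siVRK1 arrays. From S100A10 to INTS3, the S100 cluster, it was -0.78 log2, with 1 higher and 10 lower, and -0.48 log2 on the siVRK1 arrays. Copy number was not measured here, and its part in these stretches was not tested.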
